A study of Mus musculus with 4 samples.

Results

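The genes described here are Nfe2l2, which encodes the transcription factor NRF2, its inhibitor Keap1, and 8 antioxidant and detoxification genes that NRF2 is known to drive: Nqo1, Cbr1, Cbr3, Gclc, Gclm, Txnrd1, Srxn1 and Hmox1. They are 10 of the 19938 genes measured. They were chosen by name, with earlier results of these data known. For each gene the probe set with 1 gene symbol and the highest mean over all 4 arrays was kept. Each of the 10 had a single such probe set, so this choice by level removed nothing. Cbr3 entered the list because its large rise after Kdm2b knockdown was already known, so its difference is given as a description without a test.

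Expression was measured as log2 values on Affymetrix MoGene 1.0 ST arrays of E14 cells, a mouse embryonic stem cell line of strain inbred 129, with 2 arrays of Kdm2b knockdown cells and 2 of control cells. Kdm2b is a histone demethylase whose zinc finger binds unmethylated CpG-rich DNA, and it brings a variant of Polycomb repressive complex 1 to CpG islands. Both groups grew on gelatin in 15% serum with leukemia inhibitory factor at 1000 units/ml, sodium pyruvate and beta-mercaptoethanol, a thiol reducing agent. Per the labels' protocols, which give 1 text for both groups, cells were transduced with lentivirus (10 MOI) and selected in 2 µg/ml of puromycin from 48 h onward. The knockdown sequence and the vector of the control cells are not given in the labels, nor is it said whether the replicates came from separate cultures, so every p-value reflects the spread between these arrays alone, which may be technical.

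NRF2 is a basic leucine zipper factor that the adaptor KEAP1 hands to the CUL3 ubiquitin ligase for degradation. When electrophiles or oxidants modify cysteines of KEAP1, NRF2 builds up, pairs with small MAF proteins and binds antioxidant response elements beside genes for glutathione synthesis, the thioredoxin system and quinone reduction. Its activity is set mainly at the level of protein, which arrays do not read. BACH1 is a repressor that competes for the same elements, Hmox1 being its best known target.

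Kdm2b was lower in the knockdown cells, at log2 values of 9.20 and 9.19 in knockdown cells against 10.74 and 10.64 in control cells. The level was 2.82-fold lower (log2 difference -1.495, SE 0.0661, limma adjusted p = 0.0039). The stem cell marker Pou5f1 was at 13.59 and 13.66 in knockdown cells and 13.57 and 13.52 in control cells. Of 10 embryonic stem cell markers 0 passed the threshold (2 had an unadjusted p under 0.05, beside 29.8% of all genes). Over all genes 5.00% were higher, 7.19% lower and 12.2% called in either direction. Of 16 primitive and visceral endoderm markers 5 were higher and 0 lower, led by Gata6 (log2 difference 2.115). The mean log2 value of those 16 was 9.76 and 10.00 in knockdown cells, against 9.41 and 9.21 in control cells. Some lay at a low level, under 8.52, the median over all probe sets. Ttr, for example, had 6.19 and 6.19 in knockdown cells against 5.95 and 5.97 in control cells. Of 14 fibroblast markers 1 was higher and 2 lower, with mean values of 8.68 and 8.64 in knockdown cells and 8.66 and 8.69 in control cells. Of 10 trophectoderm markers 3 were higher and 1 lower, with means of 9.26 and 9.25 in knockdown cells and 9.28 and 9.19 in control cells. The part of any of these cell types in the results below was not tested. In bulk samples, fewer cells of a type and less RNA per cell cannot be told apart.

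Nqo1, Srxn1, Keap1 and Gclc rose after Kdm2b knockdown, by 0.37 to 0.71 on the log2 scale, and Cbr3 had the largest difference of the 10. Cbr1, Gclm and Txnrd1 also lay higher on both knockdown arrays without passing the test, and Nfe2l2 and Hmox1 had differences of -0.045 and -0.03. Leaving Cbr3 aside, 4 of 9 genes passed the threshold (adjusted p under 0.05, limma) upward, 0 passed downward and 5 did not pass. Over all genes, 5.00% passed upward, 7.19% downward and 12.2% in either direction. The genes were listed with earlier results known, so the count describes them and was not tested against these shares. Of the 9, 7 had an unadjusted p under 0.05 (limma), as did 29.8% of all genes. The median log2 difference was 0.31 over the 10 genes and 0.25 over the 9 without Cbr3, beside 0.03 over all genes. In each of the 10 genes the values of the groups were fully apart, the knockdown pair above the control pair in 8 genes and below it in 2. Over all genes 58.8% had such non-overlapping groups, 33.8% higher and 25.0% lower. When an array was left out, limma called 0 of the 9 in each of the 4 cases, as it called 0 of all 19938 genes. The median log2 difference of the 9 was then between 0.195 (without control replicate 1) and 0.34 (without control replicate 2). Those fits have 1 residual degree of freedom, against 2 with all arrays.

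**Figure D1:**
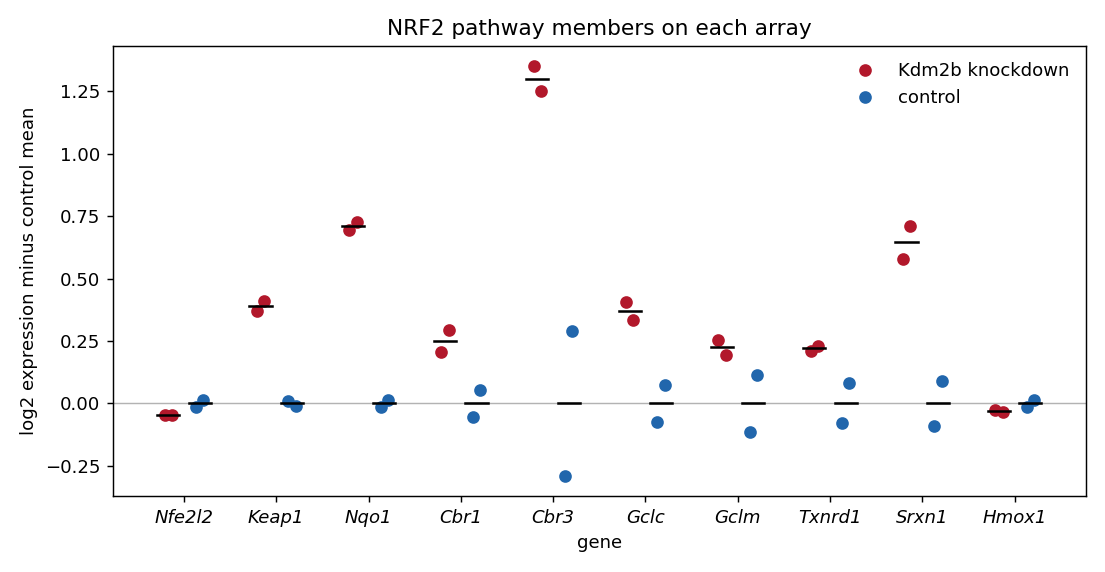
Log2 expression of the 10 genes on each array (vertical axis, as the difference from the gene's control mean), with Kdm2b knockdown arrays in red at the left of each gene, control arrays in blue at the right and group means as black bars. The knockdown points of Cbr3, Nqo1, Srxn1, Keap1, Gclc, Cbr1, Gclm and Txnrd1 lie above their control points, and the control points of Cbr3 lie 0.58 apart.

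Of the 2 regulators, Keap1 rose and Nfe2l2 did not pass the test. Nfe2l2, the transcription factor itself, had log2 values of 12.73 and 12.73 in knockdown cells against 12.76 and 12.79 in control cells. Its knockdown arrays lay just below its control arrays, with a log2 difference of -0.045 (95% interval -0.19 to 0.10, adjusted p = 0.66, limma). Keap1, whose product captures NRF2 for degradation, had 9.79 and 9.83 in knockdown cells against 9.43 and 9.41 in control cells. Both knockdown arrays were higher, and the replicates differed by at most 0.04. In log2 units Keap1 rose by 0.39 (SE 0.0607), which is 1.31-fold (limma, adjusted p = 0.0171), and with each array left out its difference was 0.37 to 0.41.

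Among the reductases, Nqo1 rose, Cbr3 had a larger difference with a wider spread in control cells, and Cbr1 did not pass. Nqo1 encodes NAD(P)H quinone dehydrogenase, which reduces quinones by a hydride transfer that avoids semiquinone radicals, and is a standard readout of NRF2. Its log2 values were 10.56 and 10.59 in knockdown cells against 9.85 and 9.88 in control cells. The gap between the groups was far wider than that between replicates, 0.03 in each group. Nqo1 rose by 0.71 (SE 0.0606, adjusted p = 0.00556, limma), or 1.64-fold, and by 0.695 to 0.725 with each array left out.

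Cbr3 and Cbr1 encode carbonyl reductases of the short-chain dehydrogenase family, which use NADPH to reduce ketones and quinones. Cbr3 stood at 9.82 and 9.72 in knockdown cells against 8.18 and 8.76 in control cells. Both knockdown arrays were higher than both control arrays, but the control arrays differed from each other by 0.58. The log2 difference was 1.30, a 2.46-fold higher level, and leaving out control replicate 1 made it 1.01, leaving out control replicate 2 made it 1.59. Cbr1 stood at 10.42 and 10.51 in knockdown cells against 10.16 and 10.27 in control cells. Its arrays did not overlap, but its log2 difference of 0.25 (SE 0.0723, 95% interval 0.07 to 0.43) did not pass the threshold (adjusted p = 0.0788, limma). Cbr1 and Cbr3 are related genes, and whether their probes are shared was not examined.

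Of the glutathione genes, Gclc rose and Gclm did not pass. They encode the catalytic and the modifier subunit of glutamate-cysteine ligase, the rate-limiting enzyme of glutathione synthesis. Gclc had 12.11 and 12.04 in knockdown cells against 11.63 and 11.78 in control cells. Both knockdown arrays were higher, and Gclc rose by 0.37 (SE 0.0764, adjusted p = 0.0341, limma), or 1.29-fold. Gclm had 12.81 and 12.75 in knockdown cells against 12.44 and 12.67 in control cells. The 2 control arrays were 0.23 apart, and control replicate 2 came close to the knockdown arrays. The log2 difference was 0.225 (95% interval 0.0011 to 0.449, adjusted p = 0.166, limma), which did not pass the threshold. Without control replicate 1 the difference of Gclm was 0.11, and without control replicate 2 it was 0.34.

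In the thioredoxin system, Srxn1 rose and Txnrd1 did not pass. Srxn1 encodes sulfiredoxin, which repairs over-oxidised peroxiredoxins. Its log2 values were 10.39 and 10.52 in knockdown cells against 9.72 and 9.90 in control cells. The groups were well apart, and Srxn1 rose by 0.645 (SE 0.0877, adjusted p = 0.0128, limma), or 1.56-fold. Txnrd1, the cytosolic thioredoxin reductase, had 11.98 and 12.00 in knockdown cells against 11.69 and 11.85 in control cells. Its arrays did not overlap, yet the log2 difference of 0.22 (95% interval 0.03 to 0.41) missed the threshold (adjusted p = 0.118, limma). It was 0.14 without control replicate 1.

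Hmox1 encodes heme oxygenase 1, which breaks heme down to biliverdin, iron and carbon monoxide. It was at 12.18 and 12.17 in knockdown cells against 12.19 and 12.22 in control cells. The knockdown values lay just under the control values, with a log2 difference of -0.03 (95% interval -0.18 to 0.12, adjusted p = 0.778, limma).

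**Figure D2:**
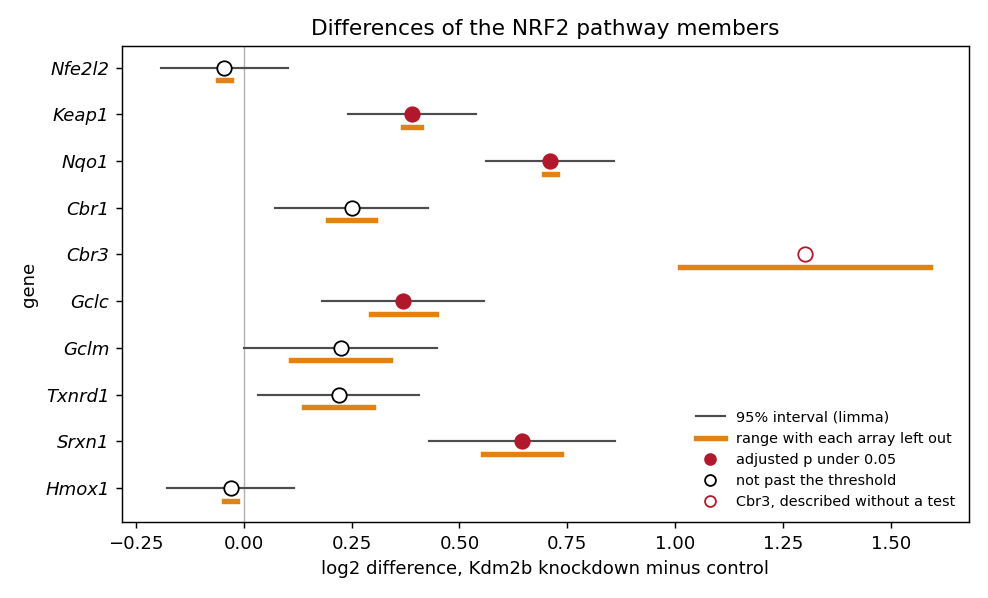
Log2 difference of each gene, Kdm2b knockdown minus control (horizontal axis), with limma's 95% interval as a thin line and the range with each array left out as an orange bar. Filled points passed the threshold, open black points did not, and Cbr3, the open red point at 1.30, is shown without an interval because it was chosen for its rise.

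The promoters are shown because Kdm2b binds CpG-rich DNA and NRF2 binds a short motif. RefSeq windows (GRCm38.p6, from 250 bases before to 50 after each start, on the gene's strand) were at hand for 8 of the 10 genes, all but Gclc and Hmox1, in 10 windows, since Txnrd1 has 3. The windows of the genes with the larger differences, Cbr3, Nqo1 and Srxn1, and of Cbr1, the neighbour of Cbr3, read as follows, with capitals at matches to the core of the antioxidant response element (TGACNNNGC, either strand).
Cbr3, GRCm38.p6 chr16:93682969-93683268, + strand: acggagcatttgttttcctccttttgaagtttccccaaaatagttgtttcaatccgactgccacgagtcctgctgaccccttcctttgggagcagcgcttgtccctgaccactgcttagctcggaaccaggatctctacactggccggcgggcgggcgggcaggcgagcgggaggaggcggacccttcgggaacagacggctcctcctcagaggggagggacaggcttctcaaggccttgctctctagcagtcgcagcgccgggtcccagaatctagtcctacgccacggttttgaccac
Cbr1, GRCm38.p6 chr16:93607587-93607886, + strand: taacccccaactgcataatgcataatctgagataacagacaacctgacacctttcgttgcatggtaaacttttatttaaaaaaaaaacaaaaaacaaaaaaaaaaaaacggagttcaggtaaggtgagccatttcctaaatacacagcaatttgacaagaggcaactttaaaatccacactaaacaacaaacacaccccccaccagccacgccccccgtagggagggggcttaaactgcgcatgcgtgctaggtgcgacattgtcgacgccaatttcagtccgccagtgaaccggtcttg
Nqo1, GRCm38.p6 chr8:107403156-107403455, - strand: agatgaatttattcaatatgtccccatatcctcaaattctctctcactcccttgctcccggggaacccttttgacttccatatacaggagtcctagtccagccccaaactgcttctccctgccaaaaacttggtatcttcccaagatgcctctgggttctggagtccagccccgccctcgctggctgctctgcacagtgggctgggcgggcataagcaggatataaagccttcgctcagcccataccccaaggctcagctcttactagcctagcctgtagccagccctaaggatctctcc
Srxn1, GRCm38.p6 chr2:152105274-152105573, + strand: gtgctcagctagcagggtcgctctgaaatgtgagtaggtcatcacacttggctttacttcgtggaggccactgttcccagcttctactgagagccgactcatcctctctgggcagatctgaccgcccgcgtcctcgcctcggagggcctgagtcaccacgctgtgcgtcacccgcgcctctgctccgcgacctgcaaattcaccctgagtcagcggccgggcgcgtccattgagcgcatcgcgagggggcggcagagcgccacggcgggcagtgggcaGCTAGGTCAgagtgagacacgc
The motif was found in 4 of the 10 windows, once each, and in 12.4% of all 32851 windows. Srxn1 held it on the opposite strand as TGACCTAGC, 29 to 37 bases into the transcribed part. Gclm held TGACGGTGC on the opposite strand, 134 to 126 bases before the start, and a window of Txnrd1 held TGACAAAGC on the opposite strand, 92 to 84 bases before it. Nfe2l2 held TGACTCCGC on its own strand, 240 to 232 bases before the start. The windows of Keap1, Nqo1, Cbr1 and Cbr3 held no match, which says only that these letters are not in these stretches.

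CpG content varied widely among these windows. Cbr3 had 19 CpG dinucleotides, Srxn1 26, Keap1 13, Cbr1 11 and Nqo1 5, while Nfe2l2 had 18 and Gclm 48. The 3 windows of Txnrd1 had 3, 27 and 12. The median of all windows was 7, and 28.1% of them had at least as many as Cbr3 and 62.0% at least as many as Nqo1. Among the called genes with a window, Srxn1 and Keap1 lay above the median of all windows and Nqo1 below it.

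The replicates also differed among themselves in these genes. In control cells all 8 target genes were higher in replicate 2 than in replicate 1, by 0.03 (Nqo1 and Hmox1) to 0.58 (Cbr3), and Keap1 was lower by 0.02. Over all genes, 44.3% were higher in control replicate 2, and the median gap was -0.01. A gap as large as that of Cbr3 was seen in 0.201% of all genes, one as large as that of Gclm (0.23) in 8.76% and one as large as that of Srxn1 (0.18) in 16.3%. In knockdown cells 4 of the 8 targets were higher in replicate 2, with gaps from -0.10 (Cbr3) to 0.13 (Srxn1). With 2 arrays a group, these gaps are given as values without a test.

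**Figure D3:**
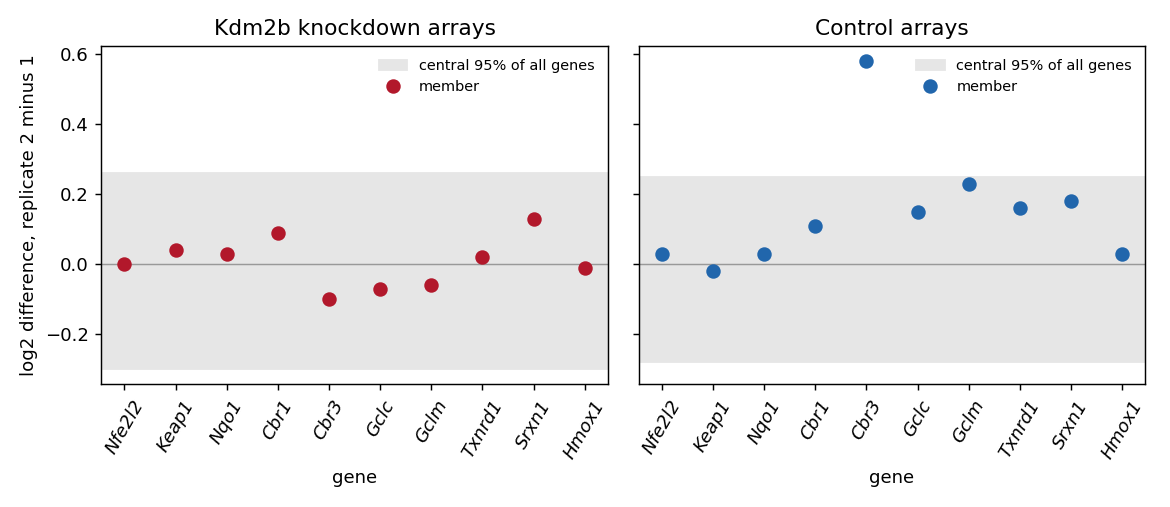
Log2 difference between the replicates of a group, replicate 2 minus replicate 1 (vertical axis), for each of the 10 genes in Kdm2b knockdown cells (left) and control cells (right), with the central 95% of all genes shaded. The control gaps of all genes except Keap1 lie above 0, and Cbr3 at 0.58 lies outside the shaded range.

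A search for patterns like that of Cbr3 left out symbols of the Gm, LOC, Rik, Mir, Snor, Olfr and Vmn series and clone names. By root mean square distance over the 4 arrays, after subtracting gene means, the 5 closest remaining genes were Ucma, Mctp2, Tcf15, Apobec2 and Exoc3l. Their distances were 0.0991, 0.118, 0.186, 0.186 and 0.187 on the log2 scale. Ucma, a secreted cartilage matrix protein gene, had 10.71 and 10.34 in knockdown cells against 8.99 and 9.50 in control cells. The choice by likeness to Cbr3 fixes its difference and its low control replicate 1, so it is given without a test. Among the 9 other members of the group of 10 the nearest to Cbr3 were Nqo1 (0.356) and Srxn1 (0.366), and the farthest Nfe2l2 (0.701). The distance is not scaled, so among the members it largely follows the log2 difference. That was 0.71 for Nqo1, 0.645 for Srxn1 and -0.045 for Nfe2l2.

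Beyond these 10 genes, 145 further genes were listed by function in 7 groups, from regulators of NRF2 to redox, conjugation, heme, iron and NADPH genes. The groups are called pathway lists below, and whether NRF2 drives each gene was not examined. Of the 145 genes, 134 were measured, of which 9 were higher, 20 lower and 105 neither. The shares were 6.72% higher and 14.9% lower, beside 5.00% and 7.19% over all genes. Most of the lower genes were in the list of conjugation, quinone reduction and export, and the other 6 lists together had 8 higher and 8 lower of 105 genes (15.2% called, beside 12.2% over all genes). Of the 17 regulators and partners of NRF2, 0 were higher, 2 lower and 15 neither, and the called share of 11.8% was near the 12.2% of all genes. Bach1, the repressor of antioxidant response elements, had 10.35 and 10.34 in knockdown cells against 10.73 and 10.86 in control cells. It fell by 0.45 (SE 0.0704, adjusted p = 0.0173, limma). Maff, a small MAF partner, had 8.08 and 8.02 in knockdown cells against 8.45 and 8.55 in control cells and fell by 0.45 (SE 0.0683, adjusted p = 0.0161, limma). The knockdown arrays of both genes lay under their control arrays. Maff lay at a low level, its mean of the 4 arrays being under 8.52, the median over all probe sets.

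Among conjugation, quinone reduction and export genes, falls outnumbered rises. Of 29 measured, 1 was higher, 12 lower and 16 neither, so that 41.4% were lower beside 7.19% over all genes, and the median was -0.30. The falls were led by mu class glutathione transferases, which join glutathione to electrophiles. Gstm6 had 7.50 and 7.30 in knockdown cells against 8.52 and 8.37 in control cells and fell by 1.045 (SE 0.0939, adjusted p = 0.00584, limma). Gstm3 had 9.76 and 9.62 in knockdown cells against 10.72 and 10.59 in control cells, a log2 difference of -0.965 (adjusted p = 0.00556, limma). Gstm2 had 9.88 and 10.15 in knockdown cells against 10.91 and 10.95 in control cells, a difference of -0.915 (adjusted p = 0.00824, limma). In all 3 genes every knockdown array was lower than every control array. Of the 7 mu class genes on the list 6 were lower, and the 7 had a median of -0.71, a group picked out after its values were seen. These genes are close relatives, and whether their probe sets share probes was not examined, so they may not be separate measurements. Gstm6 also lay under the median level of all probe sets. Gstt1, of the theta class, fell by 0.765 (SE 0.0896, adjusted p = 0.00948, limma). The 1 higher gene, Gsto1 of the omega class, was named after its value was seen. It had 10.84 and 10.88 in knockdown cells against 10.22 and 10.21 in control cells.

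**Figure D4:**
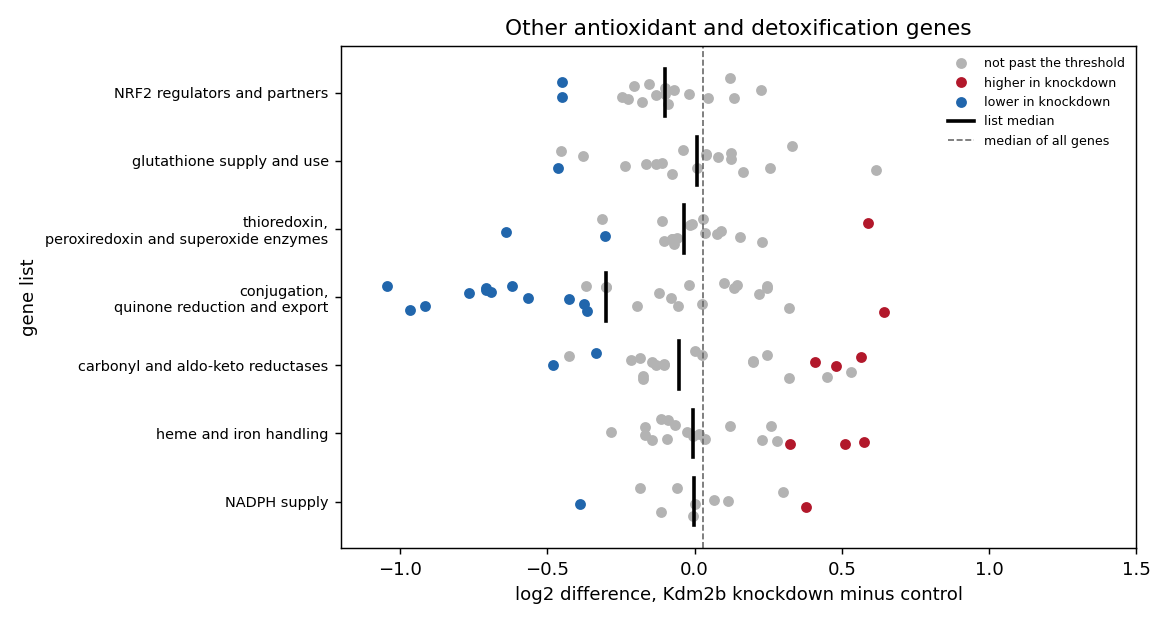
Log2 difference of each measured gene in the 7 further lists, Kdm2b knockdown minus control (horizontal axis), with genes that passed the threshold upward in red, downward in blue and others in grey. Black bars mark list medians and the dashed line the median of all genes at 0.03. Conjugation, quinone reduction and export genes, with a median of -0.30, hold 12 of the 20 lower genes.

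Of 19 genes for glutathione supply and use, 0 were higher, 1 lower and 18 neither, with a median of 0.01. The called share was 5.26% beside 12.2% over all genes, and 5 had an unadjusted p under 0.05, beside 29.8% of all genes. The lower gene was Gpx4, which reduces lipid peroxides in membranes. It had 12.18 and 12.11 in knockdown cells against 12.65 and 12.57 in control cells and fell by 0.465 (SE 0.0669, adjusted p = 0.0145, limma). Of 18 thioredoxin, peroxiredoxin and superoxide enzymes, 1 was higher, 2 lower and 15 neither (16.7% called), with a median of -0.04. Sesn1, a stress-induced sestrin, rose by 0.59 (SE 0.0751, adjusted p = 0.0113, limma). Its relative Sesn3 fell by 0.64 (SE 0.0932, adjusted p = 0.0148, limma). Sod2, the mitochondrial superoxide dismutase, fell by 0.305 (SE 0.0597, adjusted p = 0.0298, limma).

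Of 22 other carbonyl and aldo-keto reductases, 3 were higher, 2 lower and 17 neither, with a median of -0.05. The called share was 22.7%, beside 12.2% over all genes. Akr1b8, an aldo-keto reductase, had 10.39 and 10.53 in knockdown cells against 9.92 and 10.04 in control cells and rose by 0.48 (SE 0.08, adjusted p = 0.0198, limma). The retinaldehyde reductase gene Dhrs3 rose by 0.565 and Dhrs4 by 0.41. Cbr4, a mitochondrial carbonyl reductase gene, had 10.18 and 10.19 in knockdown cells against 10.82 and 10.51 in control cells. It fell by 0.48 (SE 0.108, adjusted p = 0.0426, limma). Dhrs7, the other lower gene, was named after its value was seen and had a difference of -0.335.

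Of 19 heme and iron genes 3 were higher, 0 lower and 16 neither (15.8% called), with a median of -0.01. Tfrc, the transferrin receptor, rose by 0.575 (SE 0.0992, adjusted p = 0.0213, limma), the porphyrin transporter gene Abcb6 by 0.51 and the heme transporter gene Slc48a1 by 0.325. Among 10 genes for NADPH supply 1 was higher, 1 lower and 8 neither (20% called, beside 12.2% over all genes). The median was 0.00. Me1, cytosolic malic enzyme, had 11.24 and 11.25 in knockdown cells against 10.87 and 10.86 in control cells and rose by 0.38 (SE 0.0595, adjusted p = 0.0173, limma). Idh2, the mitochondrial isocitrate dehydrogenase that makes NADPH, had 11.80 and 11.80 in knockdown cells against 12.21 and 12.17 in control cells and fell by 0.39 (SE 0.0605, adjusted p = 0.0168, limma).

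Cbr1 and Cbr3 lie near each other on mouse chromosome 16. The RefSeq table has 1 other gene between them, which was not measured. Of the 5 nearest measured genes on each side, 1 was higher, 1 lower and 8 neither (20% called, beside 12.2% over all genes). Their median was 0.13, beside 0.03 over all genes. The immediate measured neighbours did not pass the threshold. Setd4, a SET domain gene beside Cbr1, had 9.20 and 9.35 in knockdown cells against 9.11 and 9.18 in control cells, a log2 difference of 0.13 (adjusted p = 0.311, limma). Dop1b, beside Cbr3, had 10.28 and 10.16 in knockdown cells against 9.98 and 9.91 in control cells, a difference of 0.275 (adjusted p = 0.0622, limma), which passed after quantile normalization (adjusted p = 0.0468) and with dim genes removed (adjusted p = 0.0447). Runx1, a blood cell transcription factor gene, had 9.57 and 10.01 in knockdown cells against 8.86 and 8.56 in control cells and rose by 1.08 (SE 0.166, adjusted p = 0.0164, limma). In the RefSeq order 9 genes lie between Runx1 and Setd4, 0 of them measured. Chaf1b, a chromatin assembly factor gene, fell by 0.345 (SE 0.0811, adjusted p = 0.0476, limma), and it missed the threshold after quantile normalization (adjusted p = 0.0505) and with every probe set tested (adjusted p = 0.0502).

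**Figure D5:**
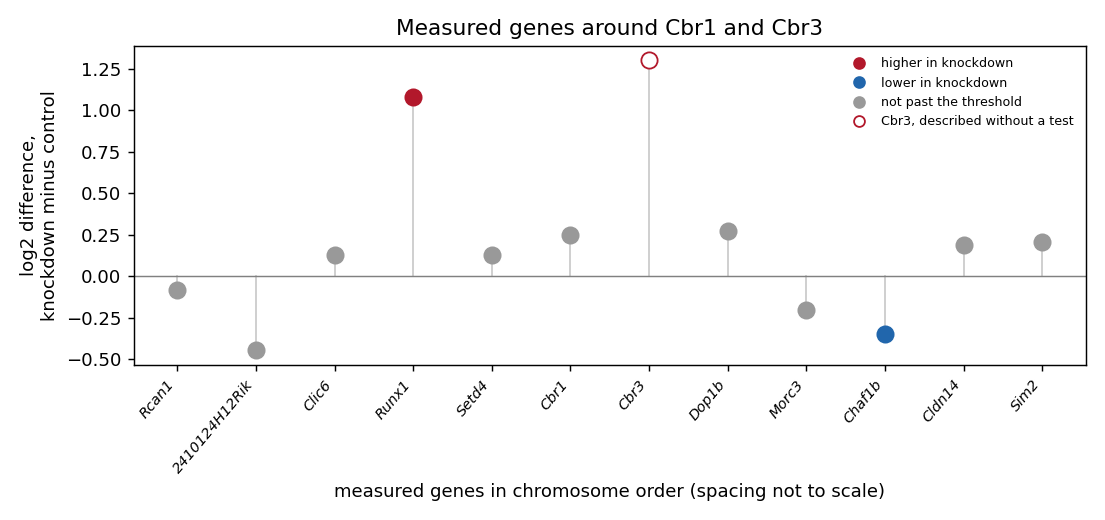
Log2 difference, Kdm2b knockdown minus control (vertical axis), of the 12 measured genes around Cbr1 and Cbr3 in chromosome order. Red, blue and grey points are genes higher, lower and not past the threshold, and Cbr3, the open point, is described without a test. The measured genes directly beside the pair lie at 0.13 and 0.275, below Cbr3 at 1.30.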

How the data were processed

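The deposited table holds log2 expression for 35557 probe sets on each of 4 arrays. Per the submitters' processing notes, the authors made these log2 values with Affymetrix Expression Console. Not given in the sources used here were its version, background correction and summary step. The log2 scale was inferred from the range of the values, 3.12 to 14.74. Array medians were 8.55 and 8.53 in knockdown and 8.49 and 8.51 in control cells, and how the arrays were scaled to each other is unknown. Replicates correlated at r = 0.9966 (knockdown) and 0.9963 (control). The number of arrays limits the precision.

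Genes were named from the platform annotation: 21789 probe sets had 1 symbol, 1621 several and 12147 no entry. Of the 21789, 21698 matched RefSeq by Entrez ID, which changed 0 symbols. The probe set with the highest mean gave 19938 genes. limma 3.58.1 in R 4.3.3 compared knockdown with control (no covariates, two-sided, p-values adjusted by Benjamini-Hochberg over all genes, prior of 3.9 degrees of freedom). The fit was also run on simulated data with independent arrays and few changed genes, which cannot show whether the calls made here hold.

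The members, the 7 pathway lists and the 4 marker lists were chosen with earlier results of these data known, so no list was tested as a set. The text names Kdm2b, the members, up to 4 called genes of each list, called and adjacent neighbours of Cbr1 and Cbr3, the 5 genes most like Cbr3, Pou5f1 and Gata6. Ttr, Gsto1 and Dhrs7 are named outside this rule, after their values were seen. Alternatives were a replicate block, leaving out each array, quantile normalization, centring on array medians, a filter on dim genes (mean above 8.52), averaging each gene's probe sets, every probe set with 1 symbol, an intensity trend, a robust prior and an adjusted p under 0.1.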

Additional observations from a re-analysis of the deposited data

How the results depend on the processing

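Under quantile normalization, median centring, the filter on dim genes, averaging each gene's probe sets, every probe set with 1 symbol, an intensity trend and a robust prior, Nqo1, Srxn1, Keap1 and Gclc stayed past the threshold, with log2 differences of 0.67 to 0.73, 0.605 to 0.667, 0.35 to 0.399 and 0.33 to 0.386, and Cbr1, Gclm, Txnrd1, Nfe2l2 and Hmox1 stayed short of it. No member changed direction under any alternative. Replicate numbers are shared between the groups, but same-numbered replicates deviated together only weakly (r = 0.0954 across genes), so the numbers are not taken as pairs. With a replicate block limma called 0 genes higher and 0 lower, 0 members, 0 pathway genes and 0 neighbours, with 6 of the 9 members and 5411 genes at an unadjusted p under 0.05. With each array left out, counts were 0 to 0 for all genes (3495 to 4215 at an unadjusted p under 0.05), members, pathway lists and neighbours, and the median of the 9 members was 0.195 to 0.34 and that of the 10 members 0.245 to 0.36. These fits have 1 residual degree of freedom. At an adjusted p under 0.1, 1920 of all 19938 genes were higher and 2236 lower. Of the 9 members 5 were then higher (with Cbr1), and of the 134 measured pathway genes 17 were higher and 27 lower. Of the 10 neighbours, 2 were then higher and 3 lower. 2 were higher after quantile normalization and with dim genes removed. 2 were lower with median centring and with an intensity trend, and 0 with every probe set tested. Median centring gave 31.1% of calls upward, against 41.0% as deposited, and moved the median of all genes to -0.01.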

Other observations

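Tcf15, a basic helix-loop-helix factor gene of epiblast and somites, was among the 5 genes most like Cbr3 over the 4 arrays and lies on mouse chromosome 2 close to Srxn1, with 1 gene between them in the RefSeq table. Tcf15 had log2 values of 11.35 and 11.36 in knockdown cells against 10.21 and 10.49 in control cells. Its log2 difference was 1.005, given without a test because likeness to Cbr3 chose it. Srxn1 rose by 0.645 in the same comparison. In control cells Tcf15 was higher in replicate 2 by 0.28 and Srxn1 by 0.18. The pair was noticed after the values were seen, and whether the 2 differences are connected was not tested.

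Mctp2, Apobec2 and Exoc3l, the remaining genes near Cbr3 in pattern, had log2 differences of 1.155, 1.30 and 1.27. Mctp2 stood at 10.11 and 10.21 in knockdown cells against 8.80 and 9.21 in control cells. Apobec2, a member of the cytidine deaminase family, stood at 10.91 and 10.73 in knockdown cells against 9.49 and 9.55 in control cells.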
